A study of Mus musculus with 3 samples.

Results

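The genes described here are 148 regulators of small GTPases among the 21770 protein-coding genes of GENCODE M39, the mouse gene annotation on the GRCm39 genome. They were chosen by symbol, as genes whose names begin with Arhgap, Arhgef, Dock, Rapgef, Rasgrp, Rasal, Tbc1d, Dennd, Agap or Asap, together with Rasa1 to Rasa3, Sipa1l1 to Sipa1l3, Trio, Kalrn, Tiam1 and Tiam2. The symbol rule also admitted Arhgap33os, which is named as an opposite-strand gene of Arhgap33 and had no enriched region. The peaks of 3 hMeDIP libraries were merged where they overlapped by at least 1 bp, which gave 13342 merged regions. A region was given to a gene when its midpoint lay in the gene body or within 1 kb upstream, and 308 of the 10730 regions in protein-coding genes fell in the regulator genes.

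hMeDIP is the pulldown of sonicated DNA with an antibody against 5-hydroxymethylcytosine (5hmC), the oxidised form of 5-methylcytosine (5mC). Here the pulled-down DNA was read directly on nanopores, so that each called CpG on a read is given as 5hmC, 5mC or unmodified C. All 3 libraries came from the cerebellum of a female C57Bl6Cr mouse aged 8 weeks, with no treatment or second genotype. Replicate 1 was pulled down with a whole serum antibody and replicates 2 and 3 with an IgG-purified antibody, so antibody and library cannot be told apart. Per the methods the 3 reactions were sonications of sheared cerebellar DNA, with input of the same sample, and the library names in the labels share 1 sample name. The p-values and SDs therefore measure the spread between reactions and sequencing runs, and separate mice are not given for them. DNA alone was measured, so the tissue was not checked against cell type markers here.

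Small GTPases, such as Rac, Cdc42 and those of the Rab, Arf, Ras and Rap families, are switches that are active with GTP bound and inactive with GDP bound. Guanine nucleotide exchange factors (GEFs) load them with GTP, and GTPase-activating proteins (GAPs) speed GTP hydrolysis and turn them off. In neurons, Rac and Cdc42 set the actin of growth cones and dendritic spines, Rab and Arf switches direct membrane traffic, and Rap and Ras switches act in adhesion and signalling. In brain, 5hmC is known to be abundant in gene bodies.

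Enriched regions were found in 71 of the 148 regulator genes (48%), whereas 20% of all protein-coding genes held at least 1. At least 5 regions were found in 21 regulators (14.2%) against 2.64% of all protein-coding genes, and these 21 genes held 224 of the 308 regions. A single region was found in 29 regulators and none in 77. In replicate 1, which had 497 peaks in all, 5 regulators held a peak (3.38%, against 1.76% of all protein-coding genes). In replicate 2, with 8546 peaks, 53 regulators did (35.8% against 15.2%), and in replicate 3, with 5166 peaks, 48 did (32.4% against 11.1%). Of these, 30 held a peak in both replicates 2 and 3, or 56.6% of the replicate 2 genes and 62.5% of the replicate 3 genes. Over all protein-coding genes the same shares were 43.2% and 59.2%. The regulators with a peak of replicate 1 were Agap3, Arhgap26, Arhgap44, Tbc1d9b and Tiam1. Most counts rested on replicates 2 and 3, since leaving out replicate 1 kept 71 genes and 302 regions, while 49 genes and 130 regions were found without replicate 2 and 53 genes and 196 regions without replicate 3.

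Regulator genes were long, with a median length of 92.1 kb against 19.0 kb for the other protein-coding genes, and long genes held regions more often. Among genes over 200 kb, 66.7% of 33 regulators and 62.4% of 982 other genes had a region. The shares were 55.6% and 47.1% from 100 to 200 kb, and 36.4% and 33.2% from 50 to 100 kb. In shorter genes the shares were 37.5% of 24 regulators and 20% of 5334 other genes from 20 to 50 kb, and 36.4% of 22 and 9.09% of 11138 under 20 kb. Under 20 kb the regulators were still the longer genes, with a median of 14.4 kb against 7.58 kb, so that class is not matched for length. Over genes of at least 50 kb, 54 of 102 regulators had a region (52.9%) against 43.1% of all protein-coding genes of that length. Length was thus higher in the group with more regions, and the comparison of shares over all lengths mixes both.

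Per length of gene, the regulators held 15.5 regions per Mb and the other protein-coding genes 9.89, a ratio of 1.57. For replicates 1 to 3 taken singly the ratios were 1.19, 1.50 and 1.61, which is 1.43 ± 0.218 (mean and SD of 3 libraries). Every replicate thus lay above 1, and replicate 1 was the lowest. Between genes of at least 50 kb the ratio was 1.58. Tiam1 and Trio carried part of it, as the ratio was 1.40 without Tiam1 and 1.29 without both, which was computed after their counts had been seen.

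**Figure D1:**
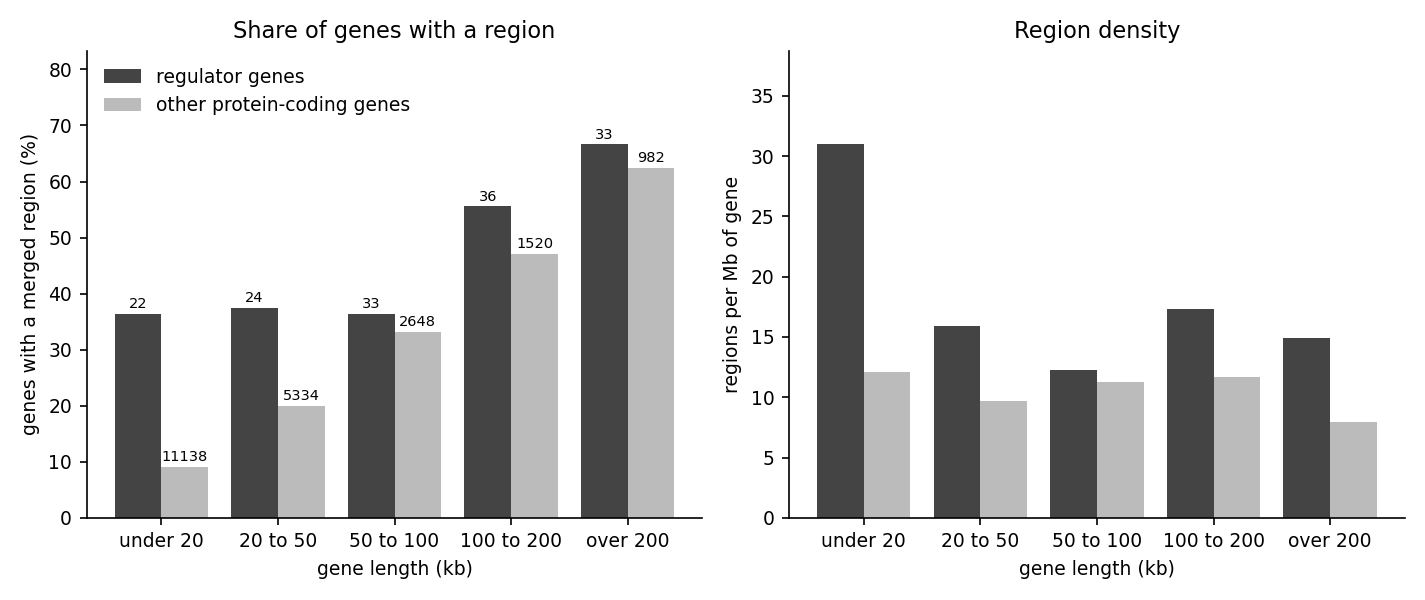
Share of genes with at least 1 merged region (left, %, with the number of genes above each bar) and merged regions per Mb of gene body plus 1 kb upstream (right), by gene length in kb, for regulator genes (dark) and other protein-coding genes (light). The dark bars are higher in each length class, from 36.4% against 9.09% under 20 kb to 66.7% against 62.4% over 200 kb. Under 20 kb the median length is 14.4 kb for regulators and 7.58 kb for other genes.

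By class, the exchange factors of the Dbl type held most regions, 109 in 20 of 29 genes, or 28.5 per Mb. Of these, 63 were in Tiam1 and Trio, and the other members of the class held 46, or 14.5 per Mb, beside 12.8 per Mb for all regulators without Tiam1 and Trio. The 6 ArfGAP genes (Agap and Asap) held 34 regions in 5 genes, 29.7 per Mb, and all 3 RapGAP genes (Sipa1l1 to Sipa1l3) held regions, 25 in all or 39.3 per Mb. Exchange factors for Rap held 18 regions in 6 of 7 genes (16.4 per Mb). The DOCK exchange factors had 28 regions in 6 of 11 genes (9.10 per Mb). The RabGAPs of the TBC type had 37 in 13 of 30 genes (13.5 per Mb), and the RabGEFs of the DENN type 13 in 6 of 17 genes (7.48 per Mb). The Arhgap genes, which encode GAPs and are counted here with Arhgap33os, had 38 regions in 11 of 35 genes (7.94 per Mb). Of 6 RasGAP genes, Rasa3 alone had regions, and none of the 4 RasGRP exchange factors for Ras did, Rasgrp1 included. Over all protein-coding genes 20% had a region, and the RasGRP genes had a median length of 41.1 kb. None of the 8 regulator genes on chromosome X had a region, where 2.24% of all 982 protein-coding genes did, so a count of 0 is near the background there. Agap1 held 20 of the 34 ArfGAP regions and Sipa1l3 16 of the 25 RapGAP regions, and without them these classes had 20.3 and 20.6 per Mb, which like the value without Tiam1 and Trio was computed after the counts had been seen. The other protein-coding genes held 9.89 regions per Mb. The DOCK, DENN, Arhgap and RasGAP classes (the last at 9.80 per Mb) lay below that value, as did the RasGRP genes without a region. The higher density of the regulators as a set thus did not hold in every class. These densities are descriptions of classes of few genes, and no class was tested against another.

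**Figure D2:**
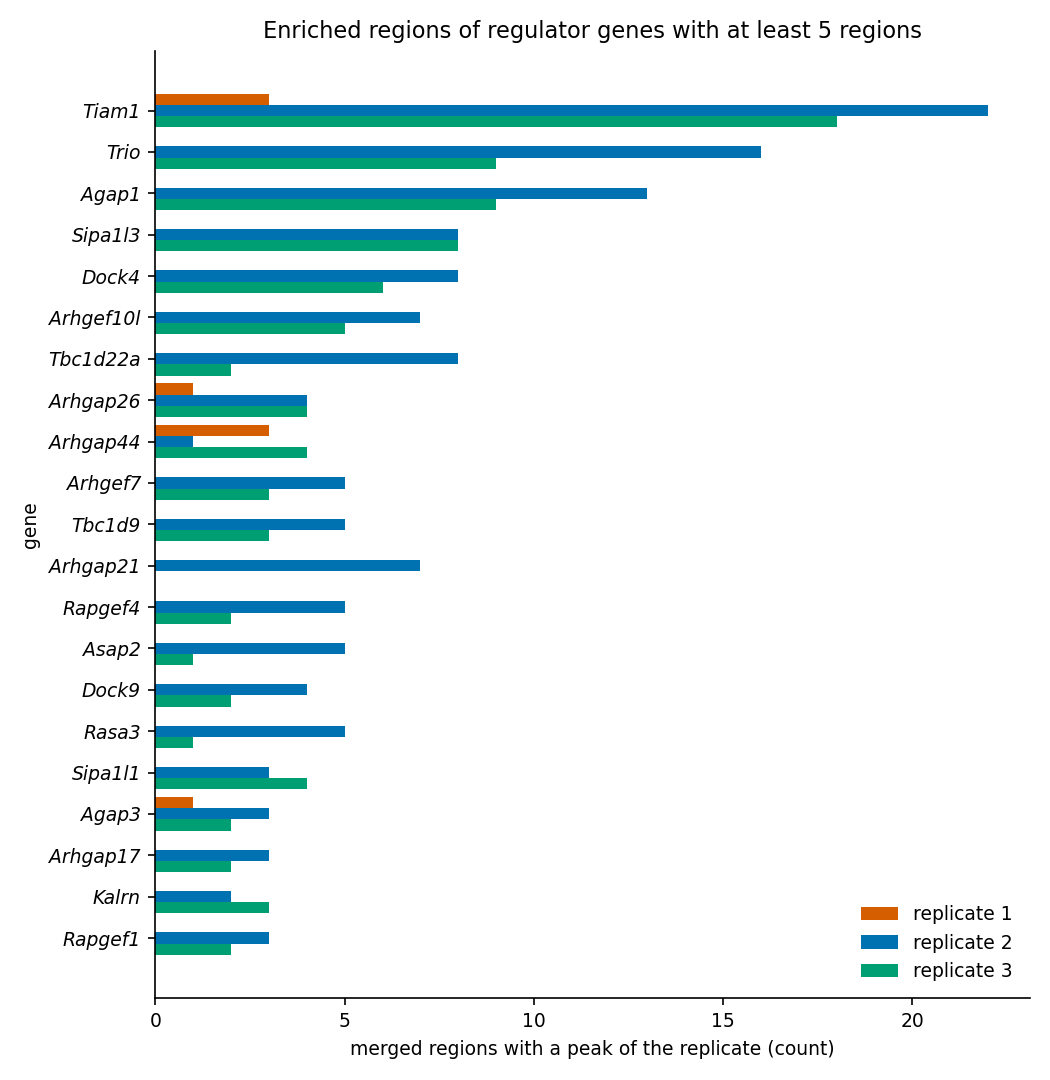
Number of merged regions that hold a peak of replicate 1, 2 or 3 (bars by colour) in each of the 21 regulator genes with at least 5 merged regions. Tiam1 is at the top with 3, 22 and 18, and Trio follows with 0, 16 and 9.

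Tiam1, an exchange factor for Rac, lies at chr16:89583994-89941086 on the minus strand and spans 357 kb. It held 38 merged regions, 12.3% of all those in the regulators, and ranked 3 of all protein-coding genes by this count. A peak of replicate 1 lay in 3 of its regions, of replicate 2 in 22 and of replicate 3 in 18. The regions covered 5.14% of the gene, at 15.3 to 335 kb from its start, and 35 of them were intronic and 3 exonic. Intron 2 of the canonical transcript held 11, and 12 were intronic but outside the introns of that transcript, on the 5′ side of its first exon. Of the 11 regulator regions with peaks in more than 1 replicate, 4 were in Tiam1, and all 4 were intronic.

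The region at chr16:89718749-89720128, in intron 2, was the single regulator region with a peak in all 3 replicates. The peaks there reached 3.76-fold, 3.81-fold and 2.83-fold enrichment over input in replicates 1, 2 and 3. In replicates 1, 2 and 3, 5hmC made up 7 of 13, 12 of 42 and 6 of 8 base-calls. All 3 replicates thus held 5hmC calls in this region, at few calls each. The region at chr16:89696934-89697330 in intron 3 had fold enrichments of 2.87 in replicate 2 and 4.55 in replicate 3, without a peak in replicate 1. There 2 of 3, 0 of 7 and 14 of 28 calls were 5hmC in replicates 1, 2 and 3, at few calls each. At chr16:89729866-89730350, also in intron 2, replicates 1 and 3 had peaks of 3.76-fold and 3.86-fold, and 5 of 9, 1 of 2 and 5 of 9 calls were 5hmC. At chr16:89850147-89850545, peaks of 3.8-fold and 3.85-fold in replicates 2 and 3 came with 2 5hmC calls out of 26 over the 3 replicates. Over the 3 replicates together, the 5hmC share of the shared Tiam1 regions thus ranged from 7.69% to 55%, although all of them had peaks in more than 1 library.

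The sequences around the summits of the first 2 of these regions are shown because the former is the best replicated of the regulator regions and the latter has 5hmC calls at nearly all of its CpG sites. Both are printed 5′ to 3′ on the plus strand of GRCm39, opposite to the gene, in lower case with each CpG that had at least 1 5hmC call in any replicate in capitals. In the stretch at chr16:89718749-89719048, 8 of 10 CpG sites had a 5hmC call, and 9 had any call. In the stretch at chr16:89696934-89697233, 8 of 9 did, and all 9 had a call.
Tiam1 intron 2: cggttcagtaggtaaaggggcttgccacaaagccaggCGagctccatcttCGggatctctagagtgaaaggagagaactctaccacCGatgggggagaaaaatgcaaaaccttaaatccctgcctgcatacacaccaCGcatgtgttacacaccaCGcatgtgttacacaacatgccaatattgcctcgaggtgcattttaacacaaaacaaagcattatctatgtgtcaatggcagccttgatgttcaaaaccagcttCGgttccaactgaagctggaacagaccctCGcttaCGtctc
Tiam1 intron 3: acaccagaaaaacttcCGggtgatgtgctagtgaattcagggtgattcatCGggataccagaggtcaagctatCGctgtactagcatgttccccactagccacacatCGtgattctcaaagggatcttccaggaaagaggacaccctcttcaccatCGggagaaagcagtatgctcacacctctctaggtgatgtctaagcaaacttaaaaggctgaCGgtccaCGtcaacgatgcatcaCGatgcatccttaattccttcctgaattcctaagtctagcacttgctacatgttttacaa

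Over all Tiam1 regions, 58 of 154 base-calls in replicate 1 were 5hmC (37.7%, 95% exact binomial interval 30.0 to 45.8%). The 5hmC share was 32.7% of 309 calls in replicate 2 (27.5 to 38.2%) and 30.6% of 294 calls in replicate 3 (25.4 to 36.2%). The 3 intervals overlapped, and the mean was 33.7% ± 3.62 (SD, n = 3). The 5mC share was 35.7%, 39.5% and 40.1% and that of unmodified C 26.6%, 27.8% and 29.3% in replicates 1 to 3. Intervals here and elsewhere cover counting error only, since a read contributes all of its CpG calls together.

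Trio, an exchange factor whose targets include Rac, spans 295 kb on chromosome 15 and held 25 regions, none of them with a peak in more than 1 replicate. Replicate 2 had a peak in 16 and replicate 3 in 9, and replicate 1 in 0. Intron 1, the first of 56 in the canonical transcript, held 15 of the regions. The 5hmC share was 46.9% of 113 calls, 29.1% of 179 and 39.6% of 159 in replicates 1 to 3. The interval of replicate 1 (37.5 to 56.5%) lay above that of replicate 2 (22.5 to 36.3%), although both are too narrow where a read gave several calls, and the mean was 38.5% ± 8.98 (SD, n = 3). The region with the strongest Trio peak, 5.81-fold in replicate 3, had 16 5hmC calls out of 27.

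**Figure D3:**
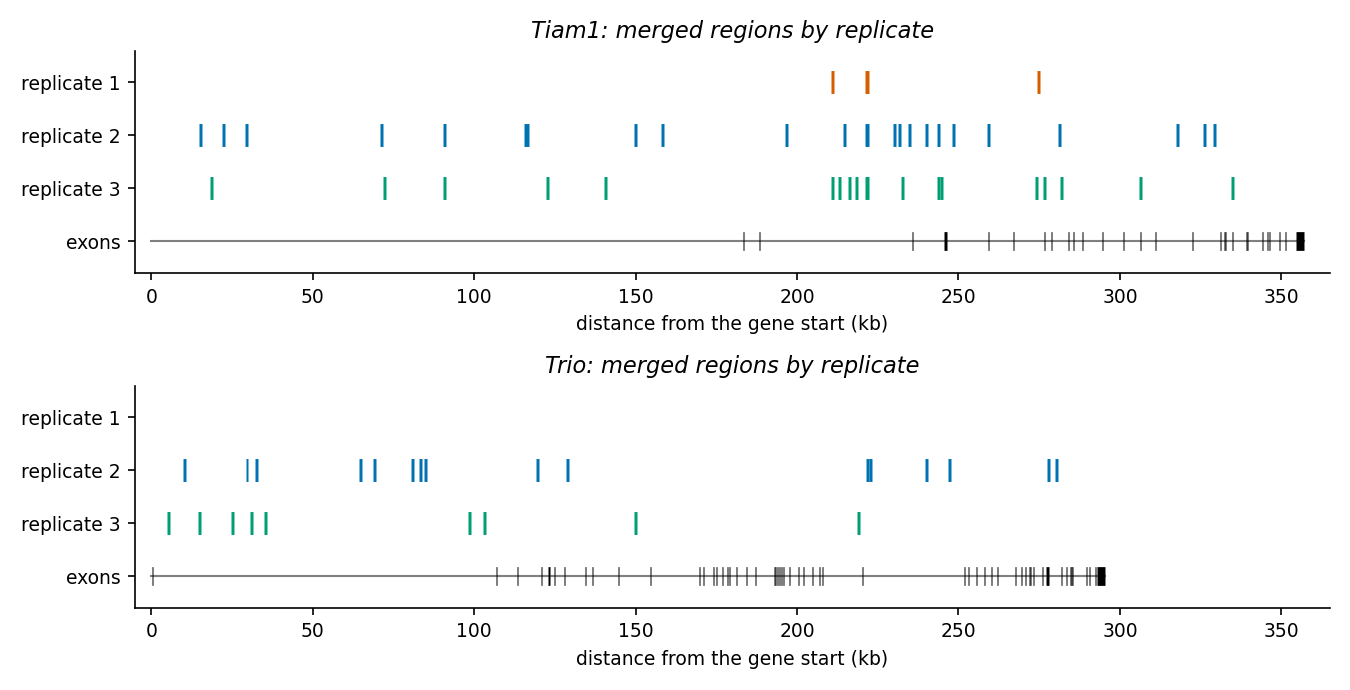
Merged regions of Tiam1 (top) and Trio (bottom) by the replicate whose peak they hold, at their distance in kb from the gene start, above the exons of the canonical transcript (black), with short marks widened to stay visible. Tiam1 regions lie at 15.3 to 335 kb from the start with a median of 226 kb, and those of Trio at 5.36 to 280 kb with a median of 84.9 kb.

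The paralogues of these genes differed from them in region number. Kalrn, built like Trio and known for its part in dendritic spines, spans 604 kb and had 5 regions, 2 with a peak of replicate 2 and 3 with one of replicate 3. Replicate 1 had no call there, and 5hmC made up 1 of 13 calls in replicate 2 and 6 of 14 calls in replicate 3. Tiam2, the other Rac exchange factor of the Tiam pair, spans 205 kb and had no region. Genes over 200 kb without a region were not rare, since 66.7% of regulators and 62.4% of other genes of that length had one. In Arhgef10l, an exchange factor, 11 regions were found in 152 kb. Its exonic region at chr4:140344057-140344474 had peaks of 4.73-fold and 4.80-fold in replicates 2 and 3, and 6 5hmC calls out of 44 over the 3 replicates. A 5.29-fold peak of replicate 2 in intron 1 of the same gene had 0 5hmC calls out of 17, which allows a share of up to 17.6%, taken as 3 calls of the total here and at other regions without a 5hmC call, a limit apart from the exact intervals. Over the gene the 5hmC share was 22.2% of 27 calls, 21.7% of 83 and 38.1% of 42 in replicates 1 to 3. Arhgef7, an exchange factor for Rac and Cdc42, had 8 regions, with 5hmC at 27.3% of 11 calls, 40.4% of 57 and 34.8% of 46. Arhgef4, a relative that binds the APC tumour suppressor, had 44.4% of 18, 6.67% of 15 and 30.0% of 20 calls, and both of its regions also lie in the protein-coding gene Fam168b, so they cannot be given to Arhgef4 alone. Arhgef19, an exchange factor too, had 1 region, with 2 of 10 and 4 of 17 calls as 5hmC in replicates 2 and 3.

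Among the DOCK genes, Dock4, an exchange factor for Rac, had 13 regions in 402 kb, 8 with a peak of replicate 2 and 6 with one of replicate 3. Its 5hmC share was 38.5% of 26 calls, 46.7% of 30 and 40.5% of 42 in replicates 1 to 3, and the 3 intervals overlapped. The region at chr12:40511889-40512457 in intron 1 had peaks of 2.87-fold and 3.87-fold in replicates 2 and 3. There 0 of 3 calls in replicate 2 and 6 of 10 in replicate 3 were 5hmC. It is shown as a shared region in which 5hmC calls came from a single library, with capitals as above, for chr12:40512158-40512457 on the plus strand, the strand of the gene.
Dock4 intron 1: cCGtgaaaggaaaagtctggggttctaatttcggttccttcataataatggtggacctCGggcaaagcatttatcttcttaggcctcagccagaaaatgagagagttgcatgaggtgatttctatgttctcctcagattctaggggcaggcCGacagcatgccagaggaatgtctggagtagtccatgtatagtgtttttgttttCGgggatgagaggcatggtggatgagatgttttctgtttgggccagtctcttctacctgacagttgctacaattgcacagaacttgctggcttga
Here 4 of 5 CpG sites had a 5hmC call, all from replicate 3. Dock2 (498 kb) and Dock10 (257 kb) had no region, and they are named after their values had been seen. For comparison, 66.7% of regulators and 62.4% of other genes over 200 kb had a region.

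Arhgap26, a GAP whose targets include Cdc42, had 9 regions and 5hmC at 53.3% of 30 calls, 42.3% of 26 and 41.7% of 48 in replicates 1 to 3. Arhgap44, a GAP for Rac, had 8 regions, all in intron 1, of which 3 held a peak of replicate 1, 1 of replicate 2 and 4 of replicate 3. Its 5hmC share was 32.0% of 25 calls, 4 of 16 calls and 27.8% of 36 calls in replicates 1 to 3, and the 3 intervals overlapped. No region held a peak of more than 1 replicate, but the calls of each replicate were summed over the same 8 regions. Arhgap17, a GAP for Cdc42 and Rac, had 5 regions and low shares, 9 of 49 calls in replicate 2 and 4 of 17 in replicate 3. Replicate 1 had no call there. Arhgap15, a GAP for Rac that spans 647 kb, had 3 regions. The one at chr2:43878152-43878875 had peaks of 2.87-fold and 3.87-fold in replicates 2 and 3 and 8 5hmC calls out of 16. No region was found in Arhgap6 (509 kb) or Arhgap24 (417 kb), both named after their values had been seen. Arhgap6 lies on chromosome X, where 2.24% of all protein-coding genes had a region. On all chromosomes together, 66.7% of regulators and 62.4% of other genes over 200 kb had one.

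Agap1, an ArfGAP that acts in endosomal traffic, had 20 regions in 456 kb, 13 with a peak of replicate 2 and 9 with one of replicate 3. Its 5hmC share was 30.0% of 20 calls, 36.9% of 103 (27.6 to 47.0%) and 20.8% of 101 (13.4 to 30.0%) in replicates 1 to 3. Both of its shared regions were poor in 5hmC calls. The region at chr1:89385091-89385872, in an exon without coding sequence 3.06 kb from the gene start, had 5 5hmC calls out of 30, with peaks of 3.83-fold and 3.87-fold. The region at chr1:89603613-89603983 in intron 9 had 0 out of 10, which allows up to 30%, with peaks of 3.83-fold and 2.90-fold, and lies in the lncRNA gene 4933400F21Rik too. Agap3, its relative on chromosome 5, had 5 regions in 50.2 kb, or 97.6 per Mb. The Agap3 region at chr5:24687365-24688270 had peaks of 3.78-fold in replicate 1 and 3.83-fold in replicate 2, and 4 of 29, 7 of 23 and 0 of 3 calls were 5hmC.

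Sipa1l3, a GAP for Rap, had 16 regions in 198 kb, 8 with a peak of replicate 2 and 8 with one of replicate 3. Its 5hmC share was 12.5% of 32 calls, 25.3% of 91 and 46.2% of 52, and the intervals of replicates 1 (3.51 to 29%) and 3 (32.2 to 60.5%) did not overlap. Sipa1l1, a RapGAP of the postsynaptic density, had 6 regions, and 5hmC at 41.7% of 12, 28.2% of 39 and 55.6% of 18 calls. It held the highest fold enrichment of any regulator peak, 7.34 in replicate 3, in a region of intron 2 at chr12:82327995-82328753 that also had a peak of 4.80-fold in replicate 2. Of the 13 calls in that region, all from replicate 2, 0 were 5hmC, which allows up to 23.1%. The 300 bases around the summit, chr12:82328444-82328743 on the plus strand, the strand of the gene, hold no CpG and hence no capitals, and are shown because the strongest peak could not be checked by CpG base-calls there. They are a tandem repeat of triplets, mostly ctt. The paper proposes that reads without 5hmC may stem from nonspecific pulldown, among others at repeats, which was not tested here.
Sipa1l1 intron 2: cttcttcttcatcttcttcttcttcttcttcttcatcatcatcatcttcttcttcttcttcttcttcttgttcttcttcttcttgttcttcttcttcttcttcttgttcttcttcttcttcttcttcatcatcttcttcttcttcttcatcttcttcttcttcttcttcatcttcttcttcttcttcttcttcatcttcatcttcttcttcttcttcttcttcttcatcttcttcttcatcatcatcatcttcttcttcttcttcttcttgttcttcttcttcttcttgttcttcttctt
A further region of the same intron, chr12:82329156-82329469, had a 5.84-fold peak in replicate 3 and no CpG either. Of the 308 regulator regions, 4 held no CpG and 15 held CpG sites without a call, counts that were not compared with other protein-coding genes.

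Rapgef4, the cAMP-activated exchange factor for Rap known as Epac2, had 7 regions and 5hmC at 8.33% of 12, 28.8% of 80 and 28.6% of 14 calls. Rapgef1, an exchange factor for Rap, had 5 regions and 15.4% of 13, 35.3% of 17 and 62.5% of 16 calls. Among the RabGAPs, Tbc1d22a had 10 regions and Tbc1d9 had 8. The 5hmC share of Tbc1d22a was 30.4% of 23, 36.5% of 52 and 22.6% of 31 calls. Tbc1d9 had 41.8% of 55 calls in replicate 2 and 35.9% of 39 in replicate 3, with 1 call in replicate 1. Its 6.18-fold peak of replicate 2, in intron 1, had 19 5hmC calls out of 33. Tbc1d16 had the highest mean 5hmC share of replicates 2 and 3 among genes with at least 10 calls in both, with 53.7% of 41 and 55.2% of 29, but 9.09% of 11 calls in replicate 1. Tbc1d8, named after its values had been seen, had 54.2% of 24, 55.6% of 9 and 55.3% of 38 calls. Dennd4b, an exchange factor for Rab GTPases of only 15.5 kb, had 3 regions, and 50.0% of 10, 30.0% of 80 and 0 of 4 calls. Rasa3, a GAP for Ras and Rap, had 6 regions, and 9.09% of 11, 46.9% of 64 and 43.5% of 23 calls.

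Arhgap21, Asap2 and Dock9, with at least 5 regions each, are named after their values had been seen, and the intervals of the 3 replicates overlapped in each of them. Arhgap21, a GAP for Cdc42, had 7 regions, all with a peak of replicate 2 and none with a peak of another replicate, and 5hmC at 4 of 19, 26 of 73 and 5 of 6 calls. Asap2, an ArfGAP, had 6 regions and 1 of 15, 13 of 38 and 6 of 24 calls, with 1 region also in Itgb1bp1, and Dock9, an exchange factor for Cdc42, had 6 regions and 1 of 3, 5 of 32 and 9 of 21. Of the 28 genes with at least 10 calls in both replicates 2 and 3, the intervals of these replicates did not overlap in 1, Tbc1d9b, with 7 of 11 calls as 5hmC in replicate 2 and 0 of 14 in replicate 3. The interval was 30.8 to 89.1% in replicate 2 and 0 to 23.2% in replicate 3. The median absolute difference between both replicates over the 28 genes was 9.89 percentage points.

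**Figure D4:**
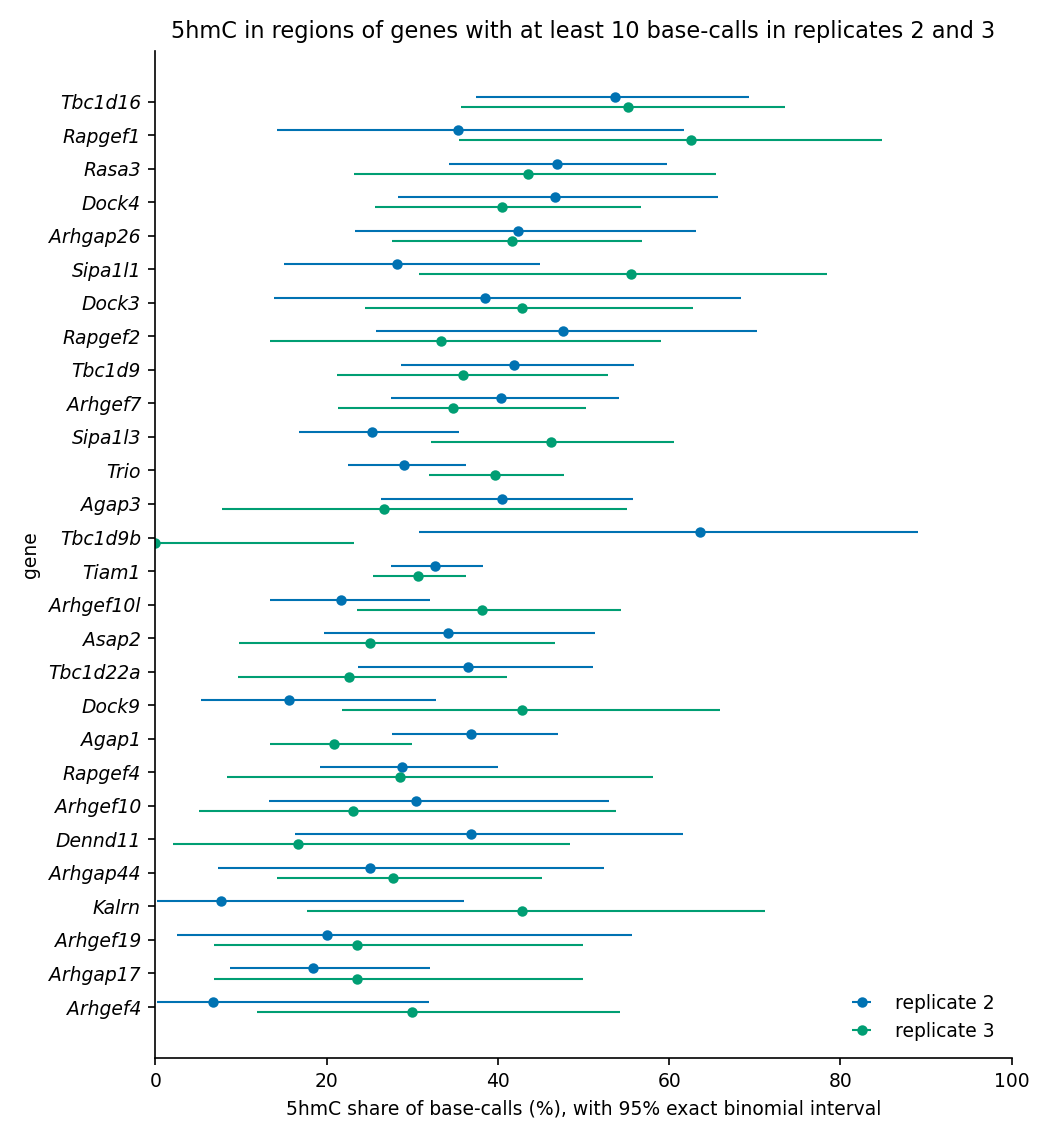
5hmC share of base-calls (%, x axis) in the merged regions of the 28 regulator genes with at least 10 base-calls in each of replicates 2 and 3, as points by replicate with 95% exact binomial intervals that cover counting error only. Genes are ordered by the mean of both shares, from Arhgef4 (18.3%, in regions shared with Fam168b) at the bottom to Tbc1d16 (54.4%) at the top, and the wide intervals of most genes overlap.

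Over all regulator regions, the 5hmC share of replicate 1 was 34.3% (808 calls, interval 31.0 to 37.7%). That of replicate 2 was 32.6% (2011 calls, 30.6 to 34.7%), and that of replicate 3 was 34.2% (1461 calls, 31.7 to 36.7%). The regions of other protein-coding genes had 30.3%, 32.3% and 31.6%. The regulators were therefore higher by 3.94, 0.291 and 2.58 percentage points, a mean of 2.27 ± 1.84 (SD, n = 3), higher in 3 of 3 libraries. A two-sided exact permutation test over sign flips of the 3 within-library differences gave p = 0.25, the smallest it can give with 3 libraries, so no difference could pass a threshold here. The 5mC share of the regulators was 41.0%, 40.0% and 39.8%, against 40.5%, 39.9% and 41.0%, a mean difference of -0.19 ± 0.861 points (exact permutation p = 1). The sign of the 5mC difference changed in 8 of 14 alternatives. Unmodified C was 24.8%, 27.4% and 26.0% against 29.2%, 27.8% and 27.4%, a mean difference of -2.08 ± 2.08 points, lower in 3 of 3 libraries (exact permutation p = 0.25). Between genes of at least 50 kb the 5hmC difference was 1.27 points, higher in 2 of 3 libraries (exact permutation p = 0.5). That of unmodified C was -0.247 points, lower in 2 of 3 (exact permutation p = 0.75). Over all lengths, the 5hmC difference was 4.86 points without replicate 2 and 0.595 without replicate 3, where the remaining libraries differed in sign. The unmodified C difference was -0.78 points without replicate 1 and -3.97 points without replicate 2.

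**Figure D5:**
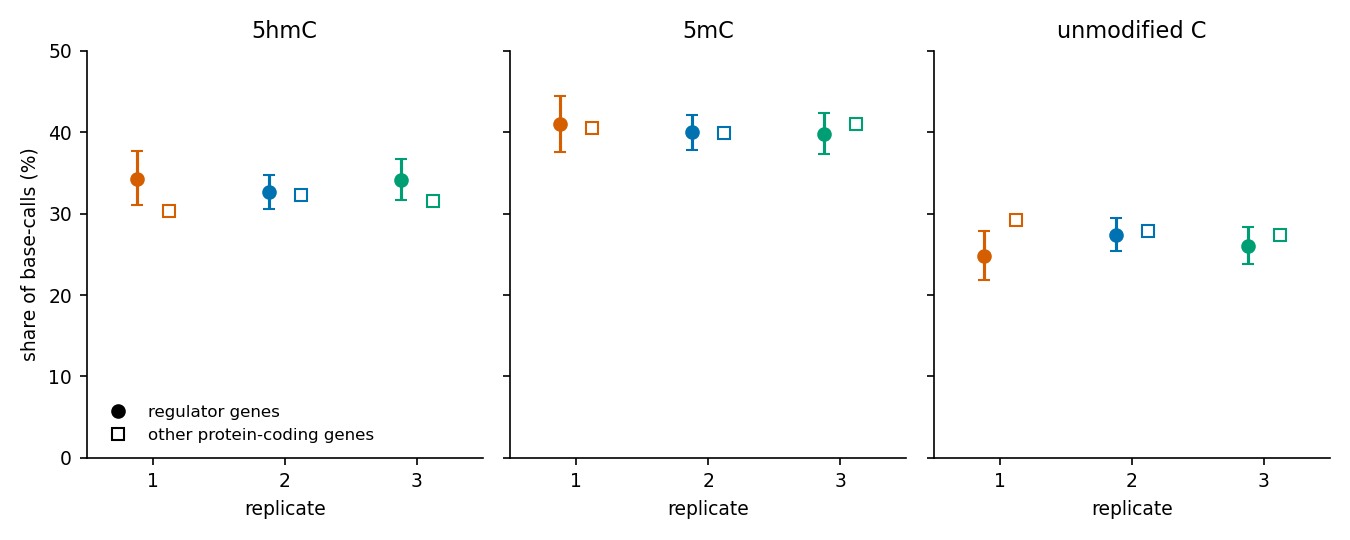
Share of base-calls (%) that were 5hmC, 5mC or unmodified C in merged regions of regulator genes (filled circles, with 95% exact binomial intervals for counting error only) and of other protein-coding genes (open squares), for replicates 1 to 3. The 5hmC circles sit at 32.6 to 34.3%, each above its square, and the unmodified C circles each sit below theirs.

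Depth limited the values of single regions. The median CpG with a call in a regulator region had 1 call in each replicate, and the most at any was 4. Sites with 1 call made up 88.0% in replicate 1, 69.5% in replicate 2 and 72.8% in replicate 3. At least 10 calls over the 3 replicates were reached by 155 of the 308 regions, and by 4913 of the 10422 regions in other protein-coding genes only. At least 50% of the calls were 5hmC in 34 of the 155 (21.9%), against 18.1% of all such regions in protein-coding genes. The shares of the 155 regions ran from 0 to 72.7% with a median of 35.0%, and the median of the other genes' regions was 32.9%. The highest, 8 5hmC calls out of 11, was a 304 bp region of intron 2 of Arhgap21, a GAP for Cdc42, and was picked after its value had been seen.

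Of the regulator regions 271 (88.0%) lay in introns, 20 in coding exons and 17 in exons without coding sequence, while none lay upstream. In other protein-coding genes 79.8% were intronic and 2.48% upstream. These shares were not matched for gene length, which had a median of 92.1 kb in regulators and 19.0 kb in other genes. Intron 1 of the canonical transcript held 95 regulator regions. Divided into 3 equal parts from start to end, the genes held 115, 106 and 87 regions. The counts in intron 1 and in the 3 parts were not compared with other protein-coding genes. The 5hmC share was 35.0% in introns and 30.5% in exons in replicate 1, 31.9% and 36.1% in replicate 2, and 35.1% and 31.5% in replicate 3. The sign was not the same in all replicates, and the mean difference was 1.31 ± 4.75 points (SD, n = 3, exact permutation p = 0.75). In intron 1 the shares were 40.8% of 240, 35.4% of 526 and 39.5% of 420 calls. The regions of regulators and of other genes had a median length of 304 bp each, with 1.97 and 1.80 CpG per 100 bp and a GC content of 50.0% and 49.3%.

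Peaks in the same place in more than 1 replicate were few. They numbered 11 of the 308 regulator regions (3.57%) against 6.1% of all regions in protein-coding genes, in 7 genes: Agap1, Agap3, Arhgap15, Arhgef10l, Dock4, Sipa1l1 and Tiam1. The regulator count was 2 without replicate 2 and 2 without replicate 3. The median fold enrichment of regulator peaks was 3.78, 3.78 and 3.85 in replicates 1 to 3, from 9, 188 and 123 peaks. The medians of other protein-coding genes were 4.72, 3.83 and 3.87. The differences were -0.944, -0.0441 and -0.0225, with a mean of -0.34 ± 0.526 (exact permutation p = 0.25), lower in 3 of 3 libraries, and the difference in replicate 1 rests on 9 peaks. Many fold values were tied. The commonest value was held by 46 of 188 regulator peaks in replicate 2 and 35 of 123 in replicate 3. As rounded, the medians of other genes equal the commonest value of each replicate, so the small differences of replicates 2 and 3 carry little weight. Without replicate 1 the mean difference was -0.033, and with peaks of −log10 q of at least 2 only 1 of 3 libraries was lower, with no difference in the other two.

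Other genes of the same pathways were listed by role. Of 177 such genes, 81 (45.8%) held a region, beside the 20% of all protein-coding genes, with 268 regions or 13.4 per Mb. Among the small GTPases themselves, 16 of 48 had a region (33.3%), at a median gene length of 25.5 kb. Exchange factors outside the symbol rule, counted here with Elmo1 and Elmo2, had regions in 22 of 48 genes (45.8%, median length 98.1 kb). GAPs had regions in 23 of 40 (57.5%, 123.7 kb) and effectors in 19 of 36 (52.8%, 92.5 kb). GDIs, which keep small GTPases off membranes, had one in 1 of 5 genes (8.61 kb). The 3 groups with the higher shares were thus also those of long genes, and their shares are not matched for length to the 20%. The 5hmC share over the 177 genes was 33.8% of 796 calls, 35.8% of 1501 and 34.6% of 1043 in replicates 1 to 3. Chn2, a GAP for Rac, had most regions of this list, 19 in 262 kb, with 5hmC at 46.7%, 49.4% and 50.0% of calls. It is followed by Srgap3, another GAP for Rac, with 14 regions and 40.0%, 40.5% and 31.1%. Both are named after their values had been seen.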

How the data were processed

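Libraries from 3 hMeDIP reactions were sequenced on a MinION. The authors base-called the reads with Dorado, aligned them to mm39 (GRCm39) with minimap2 and called peaks with MACS2 for each replicate against untreated DNA of the same sample. The peak lists, as deposited, hold the fold enrichment of each summit as a ratio to background, −log10 p and q values, a score scaled from the q-value and the summit offset. The methods state that blacklisted regions were removed, which was not checked here. The base-call counts were made by the authors with modkit at CpG sites within peaks, on the forward strand, with masked repeats left out, with a separate count for each state. The deposited percent values are calls of a modification over valid calls at a site, and were recomputed here from the counts.

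Peaks were merged over replicates and shares computed as summed calls over summed calls of the 3 states in whole merged regions, so that replicate 1, with 102 of its 808 calls in its own peaks, is mostly measured in regions found in the other replicates. Of the 98077 CpG sites on sequences in the GRCm39 reference used, 0 were not CG; a further 58 sites lie on sequences not used here. Differences between regulators and other protein-coding genes were taken within each library and tested by an exact permutation test (8 sign flips). Exact binomial intervals are at 95%. The genes named were those with a region shared by replicates, the 10 with most regions, the one with most base-calls in each class, the 5 highest and 5 lowest in 5hmC share, those of the 5 strongest peaks, and Trio, Kalrn, Tiam1 and Tiam2. Members, classes and lists were chosen with earlier results of these data known. Alternatives covered call minimums, peak thresholds, gene assignment, gene length, overlap and each replicate left out. Python 3.11.15 with numpy 2.4.6, pandas 2.3.3, scipy 1.17.1, pysam 0.24.0 and matplotlib 3.10.9 was used, and the functions were tested on simulated data.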

Additional observations from a re-analysis of the deposited data

How the results depend on the processing

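The mean 5hmC excess and the mean deficit of unmodified C in the regulators kept their sign in all 14 alternatives that gave a value, the former between 0.595 and 14.1 points and the latter between -11.8 and -0.247 points. The libraries did not keep theirs: of 11 alternatives with all 3 libraries, the 5hmC difference had mixed signs in 5 (calls in the own peaks, the mean of single sites, no region with a CpG of 20 or more calls, fold enrichment of at least 4, genes of at least 50 kb). Unmodified C had mixed signs in 4 (own peaks, single sites, regions of 1 gene, genes of at least 50 kb). Without replicate 3 the remaining libraries differed in sign for 5hmC. The highest values came from sites with at least 3 calls (58, 194 and 184 calls in replicates 1 to 3), where the 5hmC share was 40.8%. A minimum of 5 calls left no site in the regulators and was not run further. Leaving out 1 replicate gave a 5hmC difference of 0.595 (without replicate 3), 1.33 (without replicate 1) or 4.86 points (without replicate 2) and an unmodified C difference of -3.97 (without replicate 2) to -0.78 points (without replicate 1), and moved the 5hmC share from 32.0 to 35.1%. The 5mC difference changed sign in 8 of 14 alternatives, to 4.25 points with calls in the replicate's own peaks, 0.568 as the mean of single sites, 0.814 without regions in which a CpG had 20 or more calls, 0.663 with −log10 q of at least 2, 2.62 with fold enrichment of at least 4, 0.103 with any overlap and 0.224 without Tiam1. Leaving out 1 replicate gave -0.883 to 2.07 points. The median fold difference became 0.168 with fold enrichment of at least 4, and was -0.494 to -0.033 with 1 replicate left out. The difference between introns and exons ran from -0.977 to 12.7 points with 1 replicate left out. Peaks of fold enrichment of at least 4 left 32 genes, 49 regions, 2 of them shared, and a density ratio of 1.19, and −log10 q of at least 2 left 190 regions, 7 of them shared. Leaving out 1 replicate left 49 to 71 genes, 130 to 302 regions and 2 to 9 shared regions. Without Tiam1 and Trio, chosen after seeing the data, the density ratio was 1.29. The causes of these changes were not tested. The alternatives numbered 117, of which 90 stayed within 1.5 times the reported value (counts), within 1 SD of the replicates (densities and levels) or on the same side of 0 (differences, whatever their size).

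No paired analysis was possible because there is 1 group of samples, while the within-library differences pair sets of genes within a library. Depth limits all values of single genes, since most CpG sites had 1 call, reverse-strand calls were not analysed here, and 3 libraries with 1 sample name do not measure spread between animals.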
